A study of Mus musculus with 8 samples.

Results

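VIP interneurons of the mouse primary visual cortex (V1) are described here at postnatal day 21, from droplet-based single-nucleus RNA-seq. Members were the nuclei that the deposited annotation calls Vip, which numbered 2396 of 102330 nuclei, or 2.34%, and were part of 10403 inhibitory nuclei. All animals carried Nr3c1 fl/fl, that is, loxP sites around both alleles of the glucocorticoid receptor (GR) gene. At birth they received an AAV2/5 virus in which the astrocyte promoter GfaABC1D drove Cre (GR-KO animals) or ΔCre, a shortened Cre without activity (GR-Con animals), each followed by eGFP. Rearing was either under a normal light cycle (NR) or in chronic darkness (dark rearing, DR) that lasted until the brains were taken. The 4 combinations of rearing and vector had 1 male and 1 female library each, 8 in all, and pairs of values below give the male library first. The promoter therefore aimed the vector at astrocytes and not at interneurons. Cre UMIs were nevertheless found in VIP nuclei, in 14 of 324 of the NR GR-KO male library. Whether the receptor was lost in VIP nuclei was not tested. Per the study's methods, nuclei were sorted as DRAQ5 positive and GFP negative. The vector here carried eGFP-CAAX, not the eGFP-KASH that the study used to label nuclear membranes. How far the sort removed nuclei of transduced astrocytes was not tested. Astrocytes with vector RNA were present, as EGFP UMIs were in 8.25% of astrocyte nuclei of GR-KO and 6.4% of GR-Con libraries.

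VIP interneurons are GABAergic cells of the caudal ganglionic eminence that release the vasoactive intestinal peptide and mainly inhibit other interneurons, above all somatostatin cells, so that their firing disinhibits pyramidal neurons. They receive cholinergic, serotonergic and long-range cortical input. In visual cortex they are also known for Igf1, which encodes insulin-like growth factor 1 and which sensory experience induces in these cells. Subgroups are commonly told apart by calretinin (Calb2), cholecystokinin (Cck) and choline acetyltransferase (Chat).

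The libraries held 193 VIP nuclei (in the NR GR-KO female) to 383 (in the DR GR-Con female), with 3399803 to 6367169 UMIs (unique molecules) summed over them and a median of 11454 to 23175 UMIs per nucleus. No VIP nucleus shared its barcode sequence with a VIP nucleus of another library (0 of 2396 sequences), against 1220 shared sequences of 101098 over all nuclei. Few shared pairs can arise in so small a set, so the 0 does not set VIP nuclei apart. Sharing with nuclei of other types was not counted. Median depth per VIP nucleus was 13047 and 11716 UMIs in NR GR-Con and 16692 and 23175 in NR GR-KO. It was 13205 and 15133 UMIs in DR GR-Con and 11454 and 12136 in DR GR-KO. In each comparison within 1 rearing or 1 genotype, the groups thus differed in depth without overlap. The part of depth in the calls below was not tested. Both NR GR-KO libraries stood apart. The female library was the deepest per nucleus and had the fewest VIP nuclei, the most transcript of excitatory neurons (1182 CPM summed over 14 marker genes, against 773 to 863 CPM in DR) and the least Reln (120.3 CPM, the lowest of 8 libraries, with 721 CPM the highest). CPM are UMI counts of a gene scaled to a common total over the VIP nuclei of each library. The male library had immediate early transcripts above those of all 7 others, with Fos at 12.75 CPM (0.556 to 1.88 in the others), Egr1 at 24.8 (3.15 to 10.1) and Junb at 34.0 (2.65 to 7.04). Values without these libraries are given beside several results below.

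The label matched its markers. Vip was at 344 ± 55.4 CPM (SD, n = 8 libraries) in VIP nuclei and at 18.0 ± 18.0 CPM in endothelial nuclei, the next of 20 cell types. Gad2, an enzyme of GABA synthesis, was at 302 ± 16.6 CPM, the second level after Lamp5 nuclei (1056 ± 44.5 CPM). The excitatory marker Slc17a7 was at 15.9 ± 9.73 CPM, Pvalb at 1.09 ± 0.724 and Sst at 1.95 ± 1.56 CPM. These levels were among the genes the annotation could draw on and are given as a description.

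**Figure D1:**
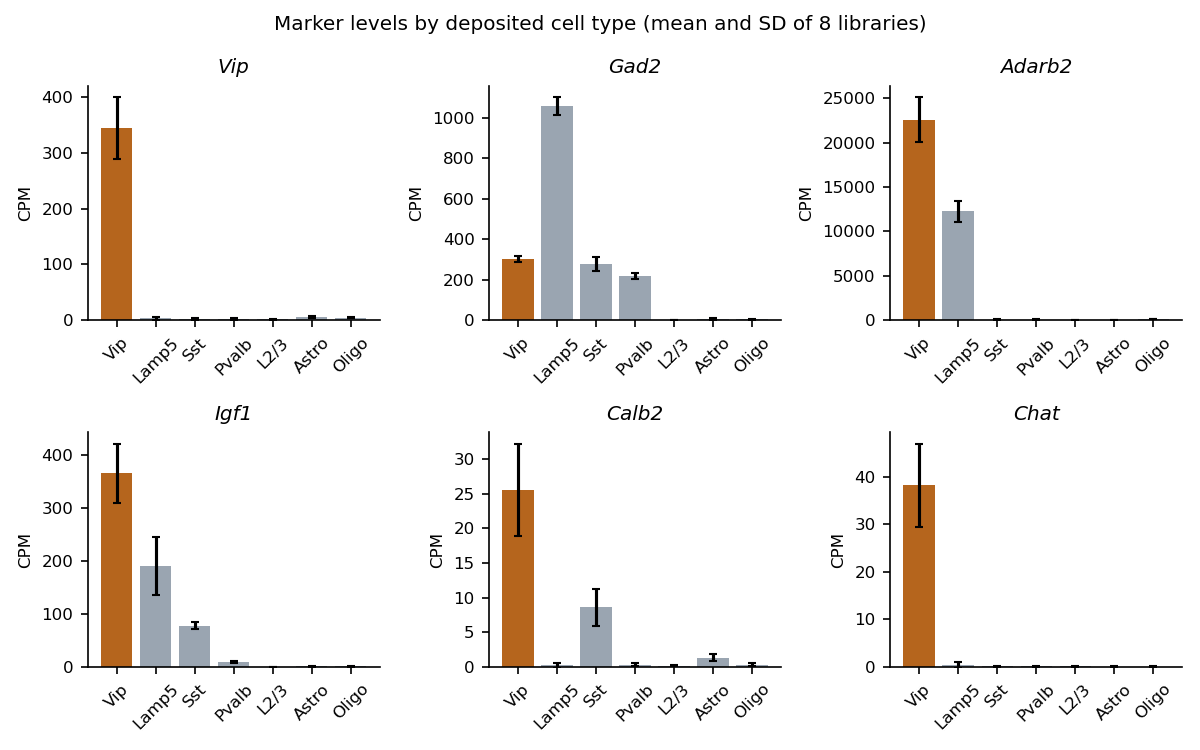
Levels of Vip, Gad2, Adarb2, Igf1, Calb2 and Chat in CPM (vertical axes) in 7 of the deposited cell types (horizontal axis), as the mean of 8 libraries with SD error bars. Vip, Chat and Calb2 were highest in VIP nuclei, whereas Gad2 was higher in Lamp5 nuclei.

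The transcripts of the caudal lineage were strong. Adarb2, an editing-enzyme paralog that marks interneurons of the caudal ganglionic eminence, was at 22580 ± 2540 CPM against 12250 ± 1135 CPM in Lamp5 nuclei, the other caudal type. Prox1, a homeobox factor of that lineage, was at 254 ± 27.1 CPM. Htr3a, the ionotropic serotonin receptor, was at 30.0 ± 5.24 CPM and at 0.934 ± 0.692 CPM in Lamp5 nuclei. Of 6011 genes at 20 CPM or more in VIP nuclei, 160 had their highest level there and 26 were at least 2 times the next type.

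The leading genes by ratio included receptors, peptides and noncoding transcripts. The ratio to the next type was 36.4 for Htr3a, 26.5 for Tac2 (neurokinin B), 21.9 for Grpr (the receptor of gastrin-releasing peptide) and 21.3 for Vip itself. Among receptors of neuropeptide Y, it was 12.9 for Npy2r, 3.25 for Npy5r and 2.48 for Npy1r. It was 3.31 for Cnr1, the cannabinoid receptor CB1, and 11.4 for Chat. Igf1 came just under 2-fold, at 366 ± 55.9 CPM against 190 ± 54.5 CPM in Lamp5 and 77.6 ± 6.27 CPM in Sst nuclei. The steroid receptors differed in rank. Nr3c1 was at 123 ± 18.8 CPM, rank 16 of 20 types, while Nr3c2, the mineralocorticoid receptor, was at 780 ± 103 CPM, the highest of all types.

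Shares of VIP nuclei with at least 1 UMI were set beside those of Pvalb nuclei, which should lack most of these genes, after each nucleus was thinned to 5000 UMIs (2371 VIP nuclei kept, 25 left out). Before thinning, median depth was 13869 UMIs per VIP nucleus and 18926 per Pvalb nucleus. Vip was found in 63.6% of thinned VIP nuclei (57.2% to 70.2% across libraries) against 1.39% of Pvalb nuclei, and unthinned in 72.8% against 4.35%. Igf1 was found in 67.4% against 4.00%, and unthinned in 83.9% against 10.6%. Both genes were thus present in most VIP nuclei, far over the Pvalb background. Vip was among the genes the annotation could draw on, so its share is a description only.

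Subtype genes were found in smaller shares. Chat was detected in 13.1% of VIP nuclei (background in Pvalb nuclei 0.0257%), Htr3a in 12.7% (0.0513%), Tac2 in 11.3% (0.128%), Calb2 in 10.8% (0.18%), Crh in 7.21% (0.205%) and Penk in 6.16% (0.257%). Cck was detected in 7.21% against a background of 4.06%, so most of its share cannot be told apart from background. Among nuclei with a Chat UMI, 23.2% also had one of Calb2, against 8.98% of those without, and the difference had this direction in 8 of 8 libraries. Among nuclei with a Calb2 UMI, 55.6% had one of Cnr1, against 72.3% of those without, and the direction held in 8 of 8 libraries too. Penk and Tac2 were seldom found together (3.43% with Tac2 among Penk nuclei, 11.8% among the rest, 8 of 8 libraries). More pairs were looked at than are given here, and many had mixed directions. Cck was in 4.67% of nuclei with a Calb2 UMI and 7.52% of those without, but was more frequent with Calb2 in 3 of 8 libraries. These shares describe nuclei, which are not replicates, and carry no test.

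The share of VIP nuclei among all nuclei ranged from 2.03% to 2.77%. It was 2.38% ± 0.31 in DR and 2.28% ± 0.29 in NR (SD, n = 4 libraries each, exact permutation test, two-sided, p = 0.543). In GR-KO it was 2.26% ± 0.31 and in GR-Con 2.40% ± 0.28 (n = 4 each, exact permutation test, two-sided, p = 0.457). Neither difference exceeded the spread between libraries. As a share of inhibitory nuclei, VIP nuclei made up 21.3% to 26.3%.

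Vip transcript itself was lower in each DR library than in each NR library, but the test over all genes did not call it. Its levels were 413 and 376 CPM in NR GR-Con, 388 and 377 in NR GR-KO, 268 and 359 in DR GR-Con, and 282 and 291 in DR GR-KO. The 4 DR values (299.9 ± 40.5 CPM) lay under the 4 NR values (388.5 ± 17.2 CPM), and libraries of the groups did not overlap for 7.43% of all genes tested. The log2 difference was -0.36 (SE 0.105, adjusted p = 0.053 by edgeR's likelihood ratio test with Benjamini-Hochberg adjustment), and DESeq2 called it (adjusted p = 0.0155). The likelihood ratio test called it when the DR GR-Con female was left out and with sex as a term, and in 0 of the other 7 fits that left out a library. Vip UMIs were found in 61.1% of thinned nuclei in DR and 66.8% in NR. Summed counts alone cannot tell fewer expressing nuclei from less RNA per nucleus.

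Igf1 showed DR values under NR values as well. It was at 435 and 380 CPM in NR GR-Con, 397 and 392 in NR GR-KO, 250.4 and 324 in DR GR-Con, and 370 and 378 in DR GR-KO. The groups did not overlap (DR 331 ± 58.4, NR 401 ± 24.1 CPM), and the lowest values were those of DR GR-Con. The log2 difference was -0.28 over both genotypes (SE 0.123, adjusted p = 0.309), -0.51 in GR-Con (SE 0.156, adjusted p = 0.149) and -0.04 in GR-KO (adjusted p = 0.99), none called by the likelihood ratio test. The difference between those last values was not called (interaction -0.46, adjusted p = 0.999). Gad2 stood level, at 275 to 330.1 CPM in NR and 296 to 307 CPM in DR (log2 difference 0.01, adjusted p = 0.985).

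The promoters of both genes are shown because activity-dependent transcription is commonly tied to cAMP response elements (CRE) and AP-1 sites close to the start. Each is a 300-base window from RefSeq (GRCm38.p6) read along the gene's strand, 5′ to 3′, for Vip chr10:5638968-5639267 (+) and for Igf1 chr10:87860861-87861160 (+). Capitals mark matches, searched on both strands, to the full CRE TGACGTCA, the short CRE TGACG, which the full CRE contains on both strands, the AP-1 site TGANTCA and the EGR site GCGNGGGCG.
Vip: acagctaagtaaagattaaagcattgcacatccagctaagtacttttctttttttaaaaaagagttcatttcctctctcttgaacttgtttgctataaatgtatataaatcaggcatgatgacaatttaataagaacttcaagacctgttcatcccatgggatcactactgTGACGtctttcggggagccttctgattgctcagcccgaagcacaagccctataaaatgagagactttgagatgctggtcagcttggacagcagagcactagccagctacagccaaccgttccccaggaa
Igf1: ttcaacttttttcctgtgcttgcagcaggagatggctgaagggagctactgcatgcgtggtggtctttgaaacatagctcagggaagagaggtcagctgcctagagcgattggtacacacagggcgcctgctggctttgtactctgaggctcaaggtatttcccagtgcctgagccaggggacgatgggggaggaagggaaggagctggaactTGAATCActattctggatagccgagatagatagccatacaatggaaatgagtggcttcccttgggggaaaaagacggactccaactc
The Vip window held a short CRE 79 bases before the start and no other match. The Igf1 window held an AP-1 match 37 bases before the RefSeq start, which lies inside the span of the gene in GENCODE, downstream of its first base. Of 32851 promoters searched, 20.8% held the short CRE, 7.81% the AP-1 site, 1.79% the full CRE and 5.55% the EGR site, so such matches are common and are given as letters in a window, not as sites in use. Vip lies at chr10:5639218-5647617 and Igf1 at chr10:87858265-87937042 in GENCODE vM21, both protein coding.

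The main rearing comparison set 4 DR against 4 NR libraries with genotype as a term. In VIP nuclei 141 of 13026 genes were called (1.08%), of which 62 were higher and 79 lower in DR. In each comparison of 2 groups, called genes outside the lists were named only if the groups did not overlap. For such genes the lack of overlap was fixed by that choice and is a description only. Genes called lower included the lipid transfer protein Osbpl3, the secretory and activity-regulated genes Scg2, Nrn1 and Rgs4, and the matrix and adhesion genes Hmcn1, Col24a1 and Itga4. Genes called higher included Fndc1 and Thsd4, which encode matrix-type proteins, the adhesion molecules Tenm3 and Cntnap4, and Fkbp5, a classical target of glucocorticoid receptors. The number depended on the test and on single libraries. The quasi-likelihood test called 2 genes (Fndc1 and Gapdh) and DESeq2 called 52, with 42 higher and 10 lower. With the sex of the animal as a term, 276 genes were called, 138 in each direction. Without the NR GR-KO male library it was 313, and without the DR GR-KO male library 42.

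**Figure D2:**
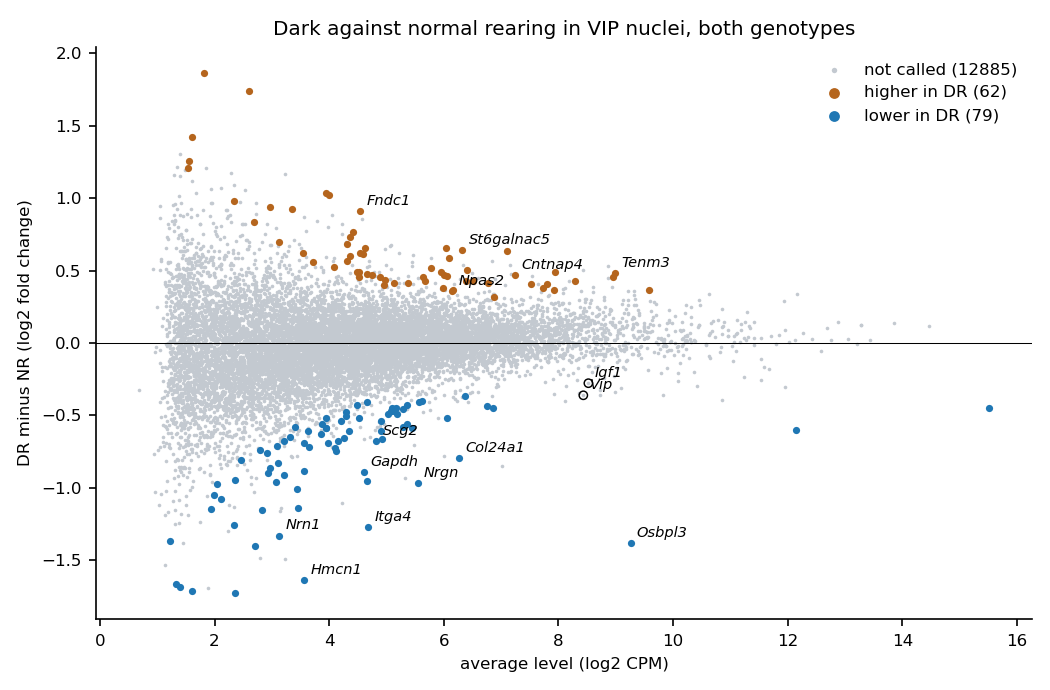
Log2 difference between DR and NR in VIP nuclei over both genotypes (vertical axis) against the average level in log2 CPM (horizontal axis) for every gene tested. The 62 genes called higher and the 79 called lower are coloured, and all others are grey.

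Osbpl3, which encodes an oxysterol-binding-protein-related protein of membrane contact sites, was called lower in DR and had high levels. Its values were 988 and 1032 CPM in NR GR-Con, 758 and 740.1 in NR GR-KO, 238.5 and 258.5 in DR GR-Con, and 545 and 335 in DR GR-KO. The groups did not overlap, and the 2 DR GR-Con libraries were lowest. Over both genotypes it fell by 1.38 on the log2 scale (SE 0.23, adjusted p = 5.75e-06, likelihood ratio test), with -1.65 to -1.21 when any single library was left out. It also fell in Lamp5 (-1.10), Sst (-1.02) and Pvalb nuclei (-1.13), types in which 2.8%, 1.02% and 3.25% of genes tested were called between DR and NR.

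Secretory and activity-regulated genes were among those called lower. Scg2, which encodes the granin secretogranin II of dense-core vesicles, was at 34.5 and 32.3 CPM in NR GR-Con, 36.7 and 33.3 in NR GR-KO, 17.2 and 27.3 in DR GR-Con, and 21.8 and 18.1 in DR GR-KO. Every DR library was under every NR library, and the fall of 0.68 on the log2 scale (SE 0.148, adjusted p = 0.00256) kept its call without any 1 library. In Lamp5 nuclei Scg2 was at 20.7 to 24.0 CPM in NR and 11.4 to 19.4 CPM in DR, without overlap too. In Sst and Pvalb nuclei its groups overlapped. Nrn1 encodes neuritin, a membrane-anchored protein induced by activity. It was at 10.6 and 7.02 CPM in NR GR-Con, 11.6 and 18.4 in NR GR-KO, 3.90 and 5.03 in DR GR-Con, and 4.41 and 4.58 in DR GR-KO, again without overlap (log2 difference -1.33, SE 0.253, adjusted p = 0.000199). Rgs4, a regulator of G protein signalling, was at 7.58 to 14.7 CPM in NR and 4.12 to 7.28 CPM in DR (-0.96, SE 0.239, adjusted p = 0.0148), also without overlap, and was called in 4 of 8 fits that left out a library.

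Of the list of activity-regulated effectors, these 3 of 20 tested members were called, each lower in DR, where 1.08% of all genes were called, and the median log2 difference was -0.22 against -0.01 over all genes tested. Without the NR GR-KO male library that median was 0.04, and 5 of 20 were called, with 313 of 13222 over all genes. Its best-expressed members were Igf1, Rasgrf1, Homer1 and Mapk4. Of activity-induced transcription factors, 0 of 15 tested were called. Without the NR GR-KO female library it was 4 of 18, with 126 of 13217 over all genes. The median was -0.22, with -0.12 when the NR GR-KO male was left out and -0.45 when the DR GR-Con female was. Within this list the NR GR-KO male library carried the highest values, and Junb gave -1.49 (adjusted p = 0.128) and Egr1 -1.14 (adjusted p = 0.123). Among neuropeptides and their processing enzymes, 2 of 22 were called, both lower, Scg2 and Sst. Sst reached at most 4.87 CPM in VIP nuclei, where it marks another cell type, and its groups overlapped (-1.67, adjusted p = 0.0438). With 1 library left out it was -2.68 to -1.30 and was called in 2 of 8 fits. Penk gave -0.56 (adjusted p = 0.0754), Vgf -0.55 (adjusted p = 0.095), Crh -0.54 (adjusted p = 0.221) and Npy -0.61 (adjusted p = 0.159), none called.

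**Figure D3:**
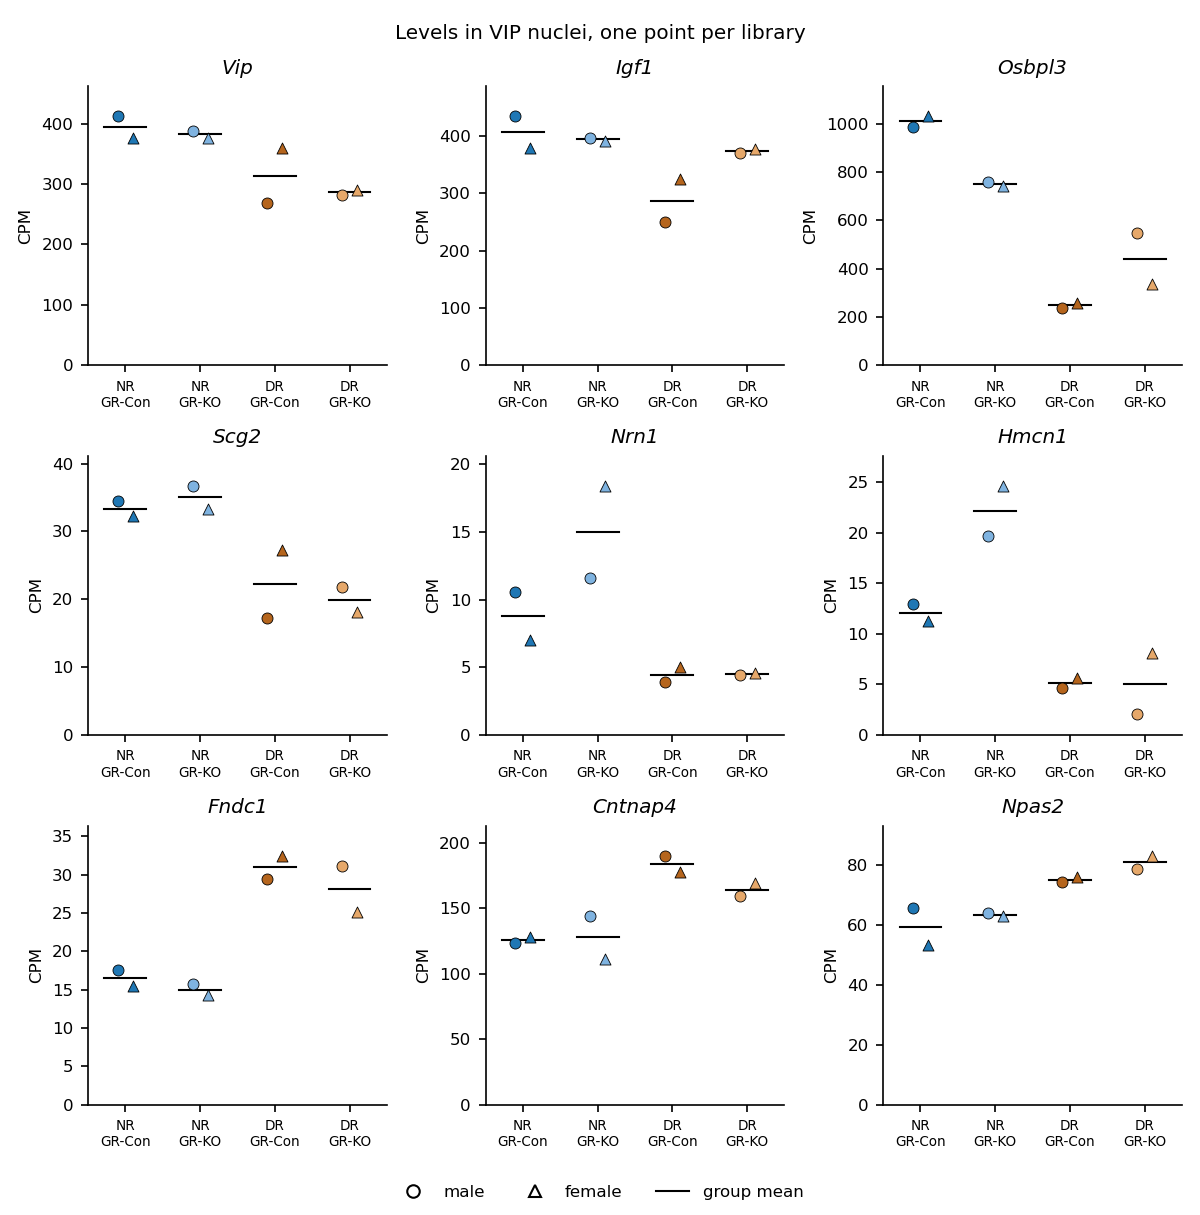
Levels in CPM (vertical axes) of Vip, Igf1, Osbpl3, Scg2, Nrn1, Hmcn1, Fndc1, Cntnap4 and Npas2 in VIP nuclei of each library, grouped by rearing and genotype (horizontal axis). DR and NR libraries do not overlap for any of these 9 chosen genes, nor for 7.43% of all genes tested. Fndc1 was named by a rule that required this. Vip and Igf1 were not called by the likelihood ratio test.

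The promoters of Osbpl3 and Scg2 are shown for the same reason as those above, as 300-base RefSeq windows on the minus strand (GRCm38.p6), chr6:50456121-50456420 for Osbpl3 and chr1:79439977-79440276 for Scg2, with the same motifs in capitals.
Osbpl3: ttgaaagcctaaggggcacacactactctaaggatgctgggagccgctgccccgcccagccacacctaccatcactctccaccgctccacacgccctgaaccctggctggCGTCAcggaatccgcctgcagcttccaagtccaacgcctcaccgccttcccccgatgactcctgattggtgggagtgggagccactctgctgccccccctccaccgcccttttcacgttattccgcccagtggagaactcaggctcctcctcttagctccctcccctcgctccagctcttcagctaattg
Scg2: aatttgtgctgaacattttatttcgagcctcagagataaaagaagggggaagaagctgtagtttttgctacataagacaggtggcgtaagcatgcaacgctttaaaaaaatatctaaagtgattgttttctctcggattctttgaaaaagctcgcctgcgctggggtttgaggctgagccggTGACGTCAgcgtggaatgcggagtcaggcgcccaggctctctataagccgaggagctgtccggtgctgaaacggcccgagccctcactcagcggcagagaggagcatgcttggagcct
Scg2 held a full CRE 68 bases before its start, a match found in 1.79% of all promoters. Osbpl3 held a short CRE, on the other strand, 140 bases before its start. Neither window says whether a factor bound there in these cells.

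Hmcn1, Col24a1, Itga4 and Fndc1 were called as well. Hmcn1, which encodes the matrix protein hemicentin 1 and was listed as a marker of VIP subtypes, was at 12.9 and 11.2 CPM in NR GR-Con, 19.6 and 24.6 in NR GR-KO, 4.64 and 5.65 in DR GR-Con, and 2.06 and 8.09 in DR GR-KO. All DR values were under all NR values, and it fell by 1.64 on the log2 scale (SE 0.262, adjusted p = 1.88e-06). Col24a1, a fibrillar collagen gene, fell by 0.79 (SE 0.173, adjusted p = 0.00256) and Itga4, the integrin alpha 4 subunit, fell by 1.27 (SE 0.25, adjusted p = 0.000349). Both were without overlap, which their naming required. In the other direction, Fndc1 was at 17.6 and 15.4 CPM in NR GR-Con, 15.8 and 14.3 in NR GR-KO, 29.5 and 32.5 in DR GR-Con, and 31.2 and 25.1 in DR GR-KO. Its rise of 0.91 (SE 0.128, adjusted p = 1.1e-08) was one of those also called by the quasi-likelihood test (adjusted p = 0.0144), and it lay between 0.86 and 0.96 without any 1 library.

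Of 74 genes for synaptic adhesion and axon guidance, 2 were called, both higher in DR, with a median of 0.04 for the list. Over all genes 1.08% were called. Without the NR GR-KO male library 13 of the 74 were called (313 of 13222 over all genes). When the NR GR-Con male was left out it was 0 (44 of 13395 over all genes). Cntnap4, a contactin-associated protein found at interneuron synapses, was at 111 to 144 CPM in NR and 159 to 190.3 CPM in DR (0.47, SE 0.103, adjusted p = 0.00258). Tenm3, a teneurin, was at 396 to 466.3 CPM in NR and 488 to 706 CPM in DR (0.48, SE 0.132, adjusted p = 0.0314), called in 3 of 8 fits that left out a library. Neither gene's groups overlapped. Nrxn3, Cntnap2 and Lrrtm4, which were among the best-expressed members of the list, were not called.

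Clock genes were called in both directions. Npas2, a partner of BMAL1 and paralog of Clock, was at 65.7 and 53.3 CPM in NR GR-Con, 64.2 and 63.0 in NR GR-KO, 74.4 and 76.0 in DR GR-Con, and 78.8 and 83.3 in DR GR-KO. DR values were all higher (0.36, SE 0.095, adjusted p = 0.0278). A clock output gene and a repressor were called lower. Dbp, a PAR-domain factor under clock control, was at 8.68 to 14.5 CPM in NR and 4.82 to 6.18 CPM in DR (-0.82, SE 0.209, adjusted p = 0.0183), and Ciart, a repressor of the clock, at 5.16 to 6.63 in NR and 2.20 to 4.05 in DR (-0.94, SE 0.245, adjusted p = 0.0225). These were 3 of 18 clock genes tested (1.08% of all genes were called), with a median of -0.18 for the list. The count was 0 without the DR GR-KO male library (42 of 13436 over all genes). Without the NR GR-KO male library it was 6 (313 of 13222 over all genes). According to the study's methods, all animals were collected under red light in the same window of the day. The phase of the clock after rearing in the dark was not measured, and its part in these values was not tested. Npas2 kept its call in 2 of 8 fits that left out a library, Dbp in 3 and Ciart in 4.

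Other lists gave few calls between DR and NR when all libraries were kept and 1.08% of all genes were called. Fkbp5, at 36.9 to 50.3 CPM in NR and 49.7 to 62.9 CPM in DR, was the 1 called of 15 tested genes of the glucocorticoid receptor and its classical targets (0.43, SE 0.123, adjusted p = 0.0466). Its groups overlapped, and it was called in 1 of 8 fits that left out a library. Ptn, the growth factor pleiotrophin, was the 1 called of 23 IGF and neurotrophin signalling genes (-0.59, adjusted p = 0.00256, groups overlapping). Of the lists of lineage genes (25 tested), receptors for neuromodulators and peptides (33), GABA synthesis and receptors (25), glutamate receptors (34) and voltage-gated channels (56), 0 members were called by the likelihood ratio test. Their medians were 0.12, 0.00, 0.02, 0.07 and 0.02 in that order. DESeq2 called 1 of the voltage-gated channels and none of the other 4 lists. These counts also rested on the NR GR-KO male library, without which they were 1, 2, 1, 2 and 1 in the same order. Without it 313 of 13222 genes were called over all genes. The glucocorticoid list then had 3 of 15 called, the IGF and neurotrophin list 3 of 23 and the VIP subtype markers 4 of 32. With all libraries, 1 of 31 VIP subtype markers was called, Hmcn1, and Calb2 gave 0.53 (adjusted p = 0.0822).

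Among further genes called higher in DR, Cyp7b1, the oxysterol hydroxylase, was at 17.1 to 19.3 CPM in NR and 20.6 to 32.6 CPM in DR (0.62, SE 0.163, adjusted p = 0.0225). St6galnac5, a sialyltransferase, was at 42.2 to 80.3 CPM in NR and 83.5 to 118 CPM in DR (0.64, SE 0.169, adjusted p = 0.0236). The groups of neither overlapped. Cyp7b1 was called in 2 of 8 fits that left out a library, and St6galnac5 and Galnt10 in 4. Of 29 named genes in this comparison, 11 kept their calls without any 1 library. St6galnac5 and Osbpl3 were the 2 called of 5 genes taken from earlier results on excitatory neurons of these same libraries, so their direction is not independent evidence. Thsd4 (0.74, adjusted p = 0.00151), Lancl3 (0.65, adjusted p = 0.00656), Galnt10 (0.61, adjusted p = 0.0175) and the noncoding 4930555F03Rik (0.59, adjusted p = 0.00256) were the remaining genes named by rule as higher, with Gm30003 (0.60, adjusted p = 0.00762).

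Gapdh and Cst3 were lower in DR. Gapdh, the glycolytic enzyme, was at 32.8 and 23.9 CPM in NR GR-Con, 35.9 and 31.3 in NR GR-KO, 14.8 and 17.6 in DR GR-Con, and 15.6 and 17.8 in DR GR-KO (-0.89, SE 0.142, adjusted p = 1.88e-06, quasi-likelihood adjusted p = 0.0498). Cst3, the secreted inhibitor cystatin C, fell by 0.72 (adjusted p = 0.00232), and both sets of libraries did not overlap. Of 82 ribosomal protein genes tested, 8 were called, all lower, with a median of -0.36 (0.606% of all genes were called lower), and of 74 nuclear genes of the respiratory chain 4 were called, all lower, with a median of -0.24. Their summed levels were 852 to 924.5 CPM in DR and 924.4 to 1336 CPM in NR for ribosomal genes, and 1252 to 1288 against 1354 to 1505 CPM for respiratory genes. Haemoglobin transcripts, which come from blood cells, moved with them, at 8.17 to 21.03 CPM summed over 4 genes in DR and 17.1 to 48.3 CPM in NR. The same direction was found in Lamp5, Sst and Pvalb nuclei (medians of -0.38, -0.32 and -0.28 for ribosomal genes). These 3 lists were added after values had been seen, and the part of RNA outside nuclei in them was not tested.

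Markers of other cell types were compared too, where 1.08% of all genes were called. Summed excitatory markers were at 773 to 863 CPM in DR and 784 to 1182 CPM in NR, and 1 of 12 tested was called, Nrgn (neurogranin), at 22.8 to 33.3 CPM in DR and 39.0 to 87.2 CPM in NR (-0.96, SE 0.169, adjusted p = 2.92e-05). The median of these 12 was -0.44, and -0.0042 without the NR GR-KO female library. Astrocyte markers summed to 539 to 687 CPM in DR and 532 to 758 in NR, with 1 of 10 called, Aldoc, the brain aldolase (-0.91, adjusted p = 0.0227). Oligodendrocyte markers summed to 60.5 to 116 and 78.0 to 112 CPM, with 0 of 8 called and a median of -0.48. Microglial and vessel markers summed to 25.3 to 45.4 and 36.2 to 49.2 CPM, with up to 2 of 12 at 0 and 0 of 4 called. Markers of other interneurons summed to 527 to 739 CPM in DR and 234 to 865 CPM in NR, with 1 of 10 called, Sst. The part of such transcripts in the rearing calls was not tested.

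In GR-Con animals alone, DR against NR gave 59 calls of 13021 genes (0.453%), 34 higher (0.261%) and 25 lower (0.192%), and 108 with sex as a term. Osbpl3 went from 988 and 1032 CPM to 238.5 and 258.5 CPM and fell by 2.02 (SE 0.135, adjusted p = 1.17e-46, and 7.67e-07 by the quasi-likelihood test). Htr2c, the serotonin 2C receptor, went from 142 and 173 CPM to 279 and 248 CPM and rose by 0.75 (SE 0.147, adjusted p = 0.000558), the 1 called of 34 genes listed as neuromodulator and peptide receptors. In GR-KO animals Htr2c was at 244 and 119 CPM in NR and 198 and 175 CPM in DR, with overlap. Nrg1, the neuregulin that activates ErbB4 receptors on interneurons, was at 1116 and 991 CPM in NR and 1543 and 1471 CPM in DR (0.52, SE 0.135, adjusted p = 0.0328).

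Adhesion genes were called upward in GR-Con, 4 of 74 (Cdh4, Unc5d, Cntnap4 and Pcdh19), where 0.261% of all genes were called higher. The median was 0.04 for the list and 0.00 over all genes. With 1 library left out the list's median lay between 0.01 (without the NR GR-Con male) and 0.08 (without the NR GR-Con female). Unc5d, a netrin receptor, rose from 126 and 121 CPM to 226 and 175 CPM (0.70, adjusted p = 0.00331). Pcdh19, a protocadherin, rose from 29.8 and 35.4 CPM to 67.3 and 50.9 CPM (0.86, adjusted p = 0.00319), and Cdh4, R-cadherin, from 154 and 156 CPM to 206 and 233 CPM (0.50, adjusted p = 0.0266). Bcar3, an adaptor of integrin signalling, fell from 65.4 and 71.9 CPM to 31.7 and 37.1 CPM (-0.99, SE 0.151, adjusted p = 2.09e-07). With 2 libraries a group, 37.9% of all genes had groups without overlap, so separation alone says little here. Zbtb7c (1.32), Crim1 (0.74), 4930555F03Rik (0.78), Col24a1 (-1.09), Itga4 (-1.06), Bcar3 and Osbpl3 kept their calls without any 1 library, 7 of 25 named genes.

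Subtype and effector genes were also called in GR-Con. Slc17a8, the vesicular glutamate transporter 3, rose from 3.52 and 1.123 CPM to 16.7 and 5.65 CPM (2.22, adjusted p = 0.0164), but the value was 1.21 to 3.27 with 1 library left out, and the call was lost without the NR GR-Con female or the DR GR-Con male library. Qrfpr, a peptide receptor listed with VIP subtype markers, fell from 18.5 and 16.6 CPM to 10.4 and 8.95 CPM (-0.87, adjusted p = 0.0235, called in 0 of 4 fits that left out a library), and Hmcn1 fell by 1.22 (adjusted p = 0.00331). Acvr1c, an activin-type receptor in the effector list, fell from 10.3 and 8.70 CPM to 1.86 and 5.18 CPM (-1.40, adjusted p = 0.0451) and kept its call in 1 of 4 fits that left out a library. Fkbp5 (0.56, adjusted p = 0.0268) and Col7a1 (1.28, adjusted p = 0.0196) were called higher as well, each in 1 of 4 fits that left out a library, with Col7a1 at 0.68 to 1.69 in those fits.

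In GR-KO animals, DR against NR gave 47 calls of 12747 genes (0.369%), 26 higher (0.204%) and 21 lower (0.165%), and 104 with sex as a term. Unc13c, which encodes the vesicle priming protein Munc13-3, went from 9.73 and 4.14 CPM to 27.9 and 39.6 CPM and rose by 2.30 (SE 0.359, adjusted p = 9.48e-07), whereas GR-Con libraries were at 16.9 and 14.6 CPM in NR and 12.4 and 9.42 CPM in DR. Calb2, calretinin, went from 20.97 and 18.4 CPM to 35.6 and 31.3 CPM and rose by 0.79 (SE 0.192, adjusted p = 0.0232). In GR-Con it was at 23.2 and 21.1 CPM in NR and 20.6 and 33.1 CPM in DR, with overlap. Tafa1, a secreted chemokine-like protein, fell from 201 and 212 CPM to 126 and 115 CPM (-0.75, adjusted p = 0.00153).

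Of the 74 adhesion and guidance genes 2 were called in GR-KO, 1 in each direction, where 0.369% of all genes were called. With 1 library left out the list's median lay between -0.001 and 0.106. Slit2, a Robo ligand, fell from 18.0 and 20.7 CPM to 7.94 and 9.44 CPM (-1.11, adjusted p = 0.00771), and Nrp2, a semaphorin receptor, rose from 29.7 and 29.0 CPM to 48.8 and 45.04 CPM (0.71, adjusted p = 0.0193). Cacng4, an auxiliary subunit of AMPA receptors, rose from 41.4 and 34.6 CPM to a mean of 60.5 ± 0.667 CPM (SD, n = 2; 0.70, adjusted p = 0.0319), the 1 called of 33 glutamate receptor genes. Scg2 (-0.79, adjusted p = 0.0288), Nrn1 (-1.69, adjusted p = 0.00309), Ptn (-0.76, adjusted p = 0.00885), Hmcn1 (-2.06, adjusted p = 0.00126) and Fndc1 (0.93, adjusted p = 0.00796) were called as over both genotypes. Junb was called lower (-2.57, adjusted p = 0.0391), with 34.0 CPM in the NR GR-KO male library and 2.65 to 7.04 CPM in the other 3. Without that library it was -1.03 (adjusted p = 0.172). Of 10 markers of other interneurons 3 were called, where 0.369% of all genes were called. With 1 library left out the median of these markers lay between -0.14 (without the NR GR-KO female) and 0.53 (without the NR GR-KO male). Sst was lower (-2.22, adjusted p = 0.0455), at most 4.87 CPM and called in 1 of 4 fits that left out a library. Sox6 and Unc5b were called higher at 1.65 (adjusted p = 0.0107) and 0.80 (adjusted p = 0.0398), in 2 and 1 of 4 fits that left out a library, and Gpc5, a glypican listed among astrocyte markers, at 0.88 (adjusted p = 0.00234). Sox6 ranged from 1.11 to 2.57 in those fits. Of 12 excitatory markers Nrgn was called lower (-1.16, adjusted p = 0.000505). With 1 library left out the median of that list lay between -1.51 (without the NR GR-KO male) and -0.32 (without the NR GR-KO female). Of 26 named genes, 2 kept their calls without any 1 library, Unc13c among them. Without the NR GR-KO male library the count in this comparison was 709, without the NR GR-KO female library 141, and without the DR GR-KO male library 4.

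Both genotypes gave rearing differences of one sign more often than all genes did. They share no library. Of 58 genes called in GR-Con and tested in GR-KO, 51 had the same sign there (87.9%), against 59.1% of 12543 genes tested in both, and 4 were called in both. In the reverse direction it was 38 of 45 genes (84.4%). The signs describe these libraries and carry no test.

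Some rearing differences themselves differed between genotypes. The test of that difference, DR minus NR in GR-Con less the same in GR-KO, called 7 of 13391 genes (0.0523%), of which 4 were positive (0.0299%) and 3 negative (0.0224%), while the quasi-likelihood test called 0 (604 at an unadjusted p under 0.05), DESeq2 3 and the fit with sex as a term 16. For Osbpl3 it was -1.28 (SE 0.278, adjusted p = 0.0119), a larger fall in GR-Con. For Unc13c it was -2.82 (adjusted p = 7.44e-06), the 1 of 4 named genes that kept its call without any 1 library. For Slit2, at 7.50 and 14.9 CPM in NR GR-Con, 18.0 and 20.7 in NR GR-KO, 17.6 and 25.4 in DR GR-Con, and 7.94 and 9.44 in DR GR-KO, it was 2.08 (adjusted p = 0.00445). For Tafa1 it was 1.21 (adjusted p = 0.0119). Median depth per VIP nucleus was higher in DR than in NR libraries of GR-Con, and lower in those of GR-KO. The part of depth in these calls was not tested.

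Under normal light, VIP nuclei of GR-KO and GR-Con animals were compared with each other. The test called 5 of 12919 (0.0387%), 3 higher and 2 lower in GR-KO, while the quasi-likelihood test called 0 (449 at an unadjusted p under 0.05), DESeq2 1 and the fit with sex as a term 30 (17 higher, 13 lower). Unc5d went from 126 and 121 CPM in GR-Con to 243 and 263 CPM in GR-KO and rose by 1.03 (SE 0.156, adjusted p = 4.66e-07, and 9.42e-06 by DESeq2). Tafa1 went from 122 and 122 CPM to 201 and 212 CPM and rose by 0.76 (SE 0.149, adjusted p = 0.00236). Megf11, a transmembrane protein with EGF-like domains, went from 36.1 and 38.5 CPM to 22.0 and 15.5 CPM and fell by 0.98 (SE 0.215, adjusted p = 0.016). The groups did not overlap for these genes, as for 32.3% of all genes tested.

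None of these 3 kept its call under every omission of a library. Leaving out the NR GR-Con male library gave 0 calls, the NR GR-KO male 259 and the NR GR-KO female 70. In Tafa1 the difference was also called in Lamp5 (1.44, adjusted p = 0.0114) and Pvalb nuclei (1.84, adjusted p = 0.0162). Nr3c1 was at 125 and 139 CPM in NR GR-Con, 110 and 162 in NR GR-KO, 109 and 115 in DR GR-Con, and 108 and 114 in DR GR-KO. Its groups overlapped (log2 difference 0.03 in NR and 0.02 over both rearings, adjusted p = 0.999 for the latter). Of the glucocorticoid receptor and its classical targets 0 of 15 tested were called in NR, with a median of 0.08, and in DR 0 of 14, with a median of 0.01.

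List medians in NR went with the libraries that stood apart. The median was 0.58 for 16 activity-induced transcription factors and 1.03 for 12 excitatory markers, with 0 called in each, against 0.00 over all genes. Without the NR GR-KO male library the median of the factors was -0.03, with 1 of 14 tested called. Without the NR GR-KO female library the median of the excitatory markers was 0.07, with 0 of 12 called. Among subtype markers Chat was at 40.8 and 47.4 CPM in GR-Con and 28.02 and 29.4 CPM in GR-KO (-0.62, SE 0.179, adjusted p = 0.331), and Cck at 14.1 and 14.04 against 23.8 and 20.3 CPM (0.65, SE 0.216, adjusted p = 0.691), neither called. Cnr1, which marks the basket-type VIP and CCK cells, was at 454 and 529 CPM in GR-Con and 546 and 290.1 CPM in GR-KO, with overlap (-0.24, SE 0.291, adjusted p = 1).

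In the dark, the genotype comparison gave 19 calls of 12843 genes (0.148%), 17 higher and 2 lower in GR-KO, while DESeq2 called 5, the quasi-likelihood test 3 and the fit with sex as a term 45. Etv5, an ETS transcription factor downstream of growth factor signalling, went from 24.9 and 31.1 CPM to 59.1 and 67.2 CPM and rose by 1.20 (SE 0.167, adjusted p = 8.65e-09). Unc13c went from 12.4 and 9.42 CPM to 27.9 and 39.6 CPM and rose by 1.67 (SE 0.235, adjusted p = 8.65e-09). Bcar3 went from 31.7 and 37.1 CPM to 62.4 and 67.7 CPM and rose by 0.94 (SE 0.155, adjusted p = 4.13e-06). These 3 genes, of 9 named, were called by the quasi-likelihood test too and kept their calls without any 1 library. With all 8 libraries in 1 fit Etv5 lost its call, while Unc13c and Bcar3 kept theirs. In NR, Etv5 was higher in the male library of each genotype, at 30.7 and 11.8 CPM in GR-Con and 58.9 and 12.6 CPM in GR-KO.

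**Figure D4:**
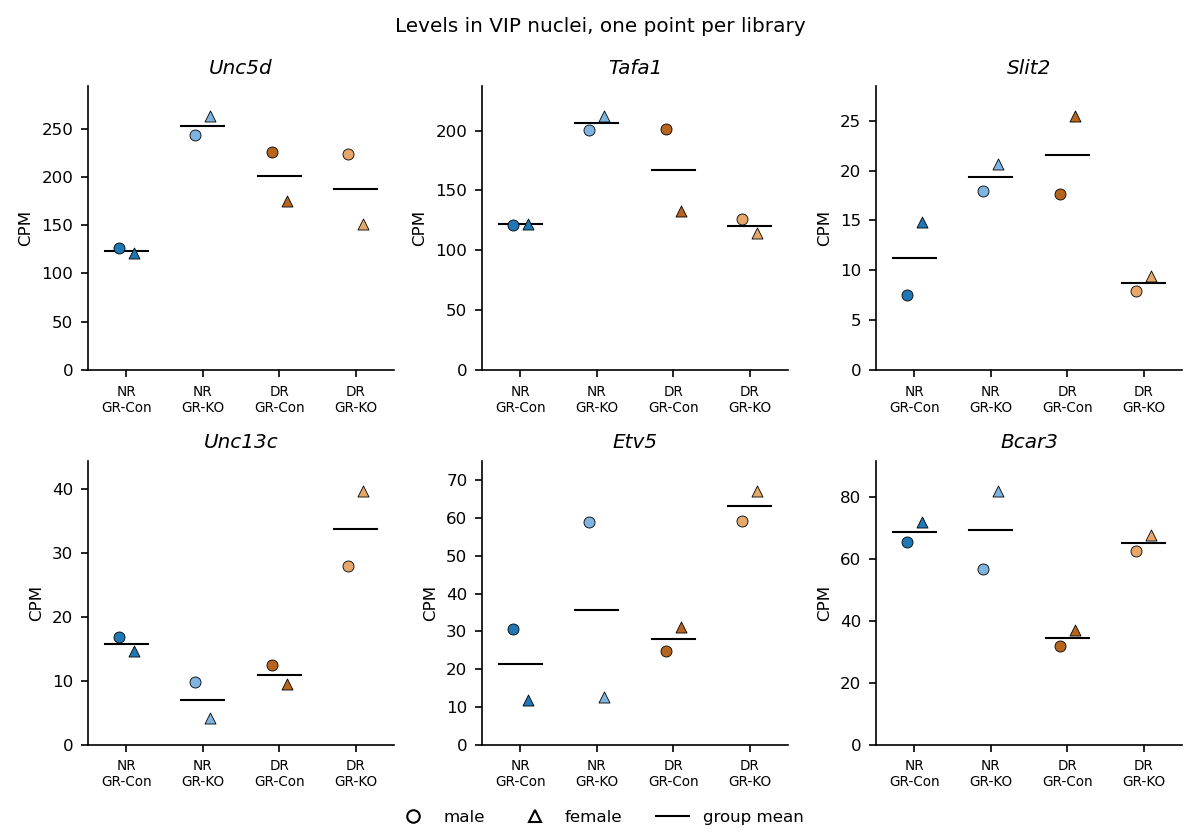
Levels in CPM (vertical axes) of Unc5d, Tafa1, Slit2, Unc13c, Etv5 and Bcar3 in VIP nuclei of each library, grouped by rearing and genotype (horizontal axis). Unc5d and Tafa1 were higher in GR-KO under normal light, and Unc13c, Etv5 and Bcar3 in the dark.

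Among further named genes in DR, Slit2 fell from 17.6 and 25.4 CPM to 7.94 and 9.44 CPM (-1.28, SE 0.259, adjusted p = 0.00163). It was the 1 called of 74 adhesion and guidance genes, where 0.148% of all genes were called. With 1 library left out the median of that list lay between -0.005 and 0.022. Osbpl3 was higher in GR-KO by 0.85 (SE 0.193, adjusted p = 0.0145). Without the DR GR-KO male library Osbpl3 was at 0.48 (adjusted p = 0.572), and neither the quasi-likelihood test nor DESeq2 called it. Eva1c, a Slit receptor, rose from 19.7 and 21.4 CPM to 36.8 and 36.7 CPM (0.86, adjusted p = 0.00049), Rnf144b, a ubiquitin ligase, from 88.7 and 69.7 CPM to 137 and 117 CPM (0.71, adjusted p = 0.00475), and Camk1g, a calcium-dependent kinase, from 22.6 and 21.2 CPM to 34.7 and 34.8 CPM (0.69, adjusted p = 0.0284, called in 0 of 4 fits that left out a library). Rai14 rose by 0.77 (adjusted p = 0.0319). Igf1 was at 250.4 and 324 CPM in GR-Con and 370 and 378 CPM in GR-KO (0.41, SE 0.147, adjusted p = 0.45), not called. Groups without overlap made up 36.2% of all genes here.

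Over both rearings, 5 of 13026 genes were called between genotypes (0.0384%), 3 higher in GR-KO (0.023%) and 2 lower (0.0154%), with 0 by edgeR's quasi-likelihood test (617 at an unadjusted p under 0.05), 4 by DESeq2 and 13 with sex as a term. Mpped1, a phosphoesterase, was at 10.1 and 12.6 CPM in NR GR-Con, 20.3 and 18.0 in NR GR-KO, 15.0 and 13.2 in DR GR-Con, and 18.8 and 24.5 in DR GR-KO. All GR-KO values were above all GR-Con values (0.71, SE 0.152, adjusted p = 0.0117). Groups without overlap, in either direction, were found for 2.33% of all genes. Rnf144b was higher by 0.53 (SE 0.115, adjusted p = 0.0117). Both genes were called in 5 of 8 fits that left out a library. Of 7 genes that earlier results on excitatory neurons of these libraries tied to genotype, among them Robo1, Epha3 and Gap43, 0 were called in VIP nuclei, with a median of -0.01. The genotype differences in NR and DR, which share no library, had 1 sign for 1 of 4 genes called in NR and for 11 of 18 called in DR (61.1%), near the 50.9% of all genes.

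Rearing differences in VIP nuclei were set against the mean of those in Lamp5, Sst and Pvalb nuclei, with the library as a block. The test called 14 of 14030 genes (0.0998%), 5 higher (0.0356%) and 9 lower (0.0641%) in VIP nuclei, and the quasi-likelihood test called 0 (848 at an unadjusted p under 0.05). Igf1 was among them, with a difference of -0.44 (SE 0.092, adjusted p = 0.00663). In Lamp5 nuclei Igf1 was at 156, 142, 158 and 139 CPM in the NR libraries and at 166, 231, 256 and 275 CPM in the DR libraries, in the order used above, and rose by 0.68 (adjusted p = 3.95e-05). DR values in Lamp5 nuclei were all above NR values, the opposite of the order in VIP nuclei. In Sst nuclei it was -0.14 and in Pvalb nuclei -0.08, not called in either. Called Igf1 differences between types were found in 3 of 8 fits that left out a library.

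**Figure D5:**
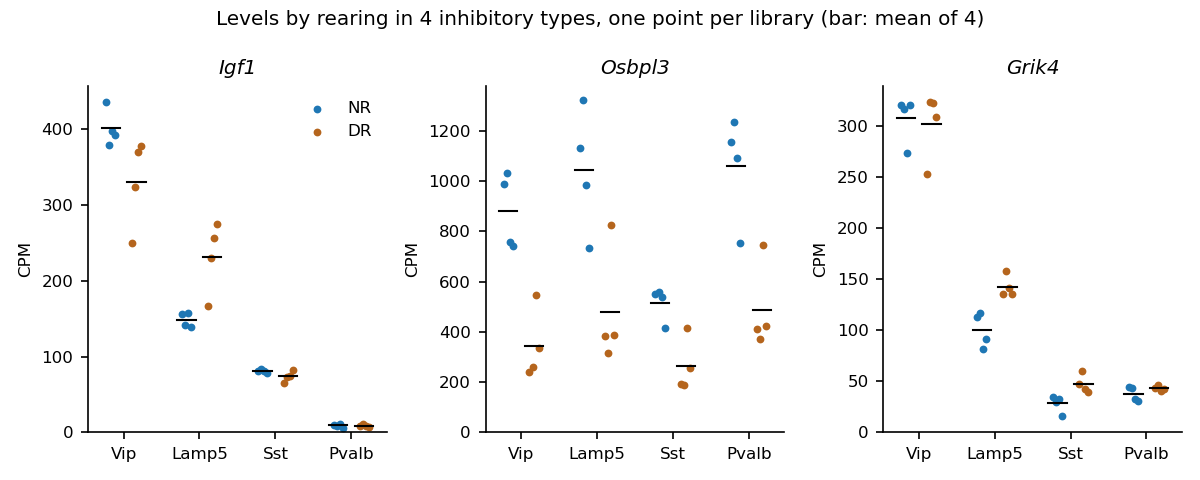
Levels in CPM (vertical axes) of Igf1, Osbpl3 and Grik4 in Vip, Lamp5, Sst and Pvalb nuclei of each library (horizontal axis), coloured by rearing. Igf1 values were higher in DR than in NR in Lamp5 nuclei and lower in VIP nuclei, whereas most DR values of Osbpl3 were under NR values in each type, with overlap in Lamp5 and Sst nuclei.

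Grik4, a kainate receptor subunit, was at 274 to 321 CPM in NR and 253 to 324 CPM in DR in VIP nuclei, and at 82.1 to 117 and 135 to 159 CPM in Lamp5 nuclei, where the groups did not overlap. The difference between types was -0.51 (adjusted p = 0.00663). Flrt2, a ligand of latrophilins and Unc5 receptors, was at 286 to 333 CPM in NR and 195 to 275 CPM in DR in VIP nuclei and gave -0.35 (adjusted p = 0.00663). Mme, the peptidase neprilysin, gave -1.20 (adjusted p = 0.00663), with 8.70 to 18.8 CPM in NR and 5.59 to 7.38 CPM in DR. Gpr176, an orphan receptor, gave -0.52 (adjusted p = 0.00848). Cyp7b1 gave 0.60 (adjusted p = 0.0269) and Col7a1, anchoring fibril collagen, 1.24 (adjusted p = 0.00663). Of the 10 named genes 0 kept their call without any 1 library, with the largest loss, to 1 gene called, without the NR GR-Con male library.

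Genotype differences in VIP nuclei differed from the mean of the other 3 types in 6 of 14030 genes (0.0428%), being more positive in VIP nuclei for 4 (0.0285%) and more negative for 2 (0.0143%). The noncoding B130024G19Rik, at 194 and 170 CPM in NR GR-Con, 200 and 151 in NR GR-KO, 196 and 179 in DR GR-Con, and 206 and 207 in DR GR-KO, gave 0.97 (adjusted p = 4.14e-07). VIP levels of both genotypes overlapped. Against Lamp5 nuclei alone it was -0.03. Adra1b, the alpha-1B adrenergic receptor, gave 0.61 (adjusted p = 0.00803), with 126 to 196 CPM in GR-Con and 159 to 187 CPM in GR-KO. Mpped1 gave 0.61 (adjusted p = 0.0188), Kit 0.47 (adjusted p = 0.0188) and Col25a1 -0.71 (adjusted p = 0.0338).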

How the data were processed

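V1 nuclei of 8 mouse libraries were profiled with a 10x Genomics 3′ kit. According to the study's methods, the authors aligned reads with Cell Ranger 8.0.1 to mm10 with a custom annotation that held eGFP, removed nuclei with very low or very high counts, removed predicted doublets per sample with DoubletFinder, and clustered with Seurat 5.3.0. Clusters without marker genes were dropped by the authors. The deposited matrix holds raw UMI counts of 26711 features per nucleus, and the table deposited by the authors gives cell type, library and the percent of mitochondrial UMIs. Cell types were used as deposited. The methods state default parameters of Cell Ranger and do not spell out how intronic or antisense reads were counted. How reads of genes with overlapping or near-identical copies were counted was not tested, and UMI counts of such genes are uncertain. Library names give rearing, vector and sex but no replicate number, so libraries are named by group and sex. The labels do not give a batch, and p-values measure the spread between libraries, each from 1 animal.

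Counts were summed per library over Vip nuclei and fitted in R 4.3.3 with edgeR 4.0.16, using filterByExpr, TMM, estimateDisp, glmFit and the two-sided likelihood ratio test, the test that the study's methods name, with Benjamini-Hochberg adjustment over all genes tested and calls at an adjusted p under 0.05. SE is the log2 difference divided by the square root of the likelihood ratio statistic. Fits within 1 rearing or genotype used 4 libraries, and the others all 8. Differences between types used counts of Vip, Lamp5, Sst and Pvalb nuclei with the library as a block. Shares were compared by exact permutation over libraries (4 against 4). Nuclei were thinned to 5000 UMIs for shares with a UMI, with 2000 as an alternative. Intervals and limits (95%, floor of 3 counts) cover counting error only. The alternatives were edgeR's quasi-likelihood F-test, DESeq2 1.42.0, RLE factors, no filter, sex as a term, all 8 libraries in 1 fit, 193 nuclei per library, Lamp5 as the only other type, and leaving out each library. Scripts were tested on simulated data.

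Members and gene lists were chosen with earlier results of these data known. Named were Vip, Gad2, Nr3c1, Igf1, called list members and, per comparison and direction, up to 8 called genes whose mean level was 4 or more on the log2 CPM scale and whose groups had no overlap (non-overlap was not required for the interaction and differences between types), those also called by the quasi-likelihood test first, then by size. X or Y features whose level separates the sexes were left out. The ribosomal, respiratory and haemoglobin lists and single genes given for detail (Cck, Cnr1, Chat, Penk, Vgf, Crh, Npy, Egr1) were chosen after values were seen. Coordinates are from GENCODE vM21 (GRCm38) by symbol: 26006 features matched 1 gene, 41 several and 664 none, Tafa1 among the last. Promoters are from RefSeq. Some genes that the naming rule gave are not reported here.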

Additional observations from a re-analysis of the deposited data

Results flagged for a closer look

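Within groups of 4 libraries, 5 of 94 named gene and group combinations had 1 library apart from the others by Dixon's ratio of gap to range, and chance alone gives about 1 in 20. These were Ciart in NR (ratio 0.884, NR GR-Con male lowest), Nrgn in DR (0.885, DR GR-Con male lowest), 4921534H16Rik in DR (0.972, DR GR-KO male highest) and in NR (0.849, NR GR-KO female highest), and Nr3c1 in GR-KO (0.901, NR GR-KO female highest).

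The rearing difference in GR-Con minus that in GR-KO was past the threshold for 7 genes. The log2 values were -2.82 for Unc13c (adjusted p = 7.44e-06 by edgeR's likelihood ratio test, as all below), -1.59 for Myl1 (0.00099), 2.08 for Slit2 (0.00445), 1.62 for Calb1 (0.0119), -1.28 for Osbpl3 (0.0119), 1.21 for Tafa1 (0.0119) and 3.32 for Boc (0.0119). Myl1, Calb1 and Boc were under the level set for naming genes.

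The rearing difference in VIP nuclei minus that in the other inhibitory types was past it for 14 genes. These were Grik4 (-0.51), Mme (-1.20), Igf1 (-0.44), Col7a1 (1.24) and Flrt2 (-0.35), each with an adjusted p of 0.00663, Pdyn (6.75, adjusted p = 0.00809), Hnmt (-0.66, adjusted p = 0.00837), Gpr176 (-0.52, adjusted p = 0.00848), Pappa (-1.88, adjusted p = 0.0143), Gm10419 (-0.46, adjusted p = 0.0175), Cyp7b1 (0.60, adjusted p = 0.0269), Gm2824 (0.75, adjusted p = 0.0309), Lgr5 (1.30, adjusted p = 0.0408) and Osbp2 (-0.36, adjusted p = 0.044). Pdyn was at no more than 1.62 CPM in VIP nuclei.

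The genotype difference minus that in the other types was past it for B130024G19Rik (0.97, adjusted p = 4.14e-07), Adra1b (0.61, adjusted p = 0.00803), Ly86 (-2.82, adjusted p = 0.017), Kit (0.47, adjusted p = 0.0188), Mpped1 (0.61, adjusted p = 0.0188) and Col25a1 (-0.71, adjusted p = 0.0338).

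Vector transcripts, which no comparison used, were found in VIP nuclei. Cre UMIs were in 17 of 1062 VIP nuclei of GR-KO libraries (1.6%), 14 of them in the NR GR-KO male library, without which it was 3 of 738 (0.407%), and in 0 of 1334 of GR-Con libraries, which allows a share of up to 0.225%. In GR-KO libraries the share was 4.59% of astrocytes and 0.149% of oligodendrocytes (3.84% and 0.0516% without the NR GR-KO male library). Nuclei were not thinned for these shares, which depend on depth. Over all libraries, median UMIs per nucleus were 13869 in VIP nuclei, 6107 in astrocytes and 8864 in oligodendrocytes. In that library Cre UMIs were in 14 of 324 VIP nuclei, 68 of 924 astrocytes and 3 of 755 oligodendrocytes. EGFP UMIs were in 0.942% of VIP nuclei in GR-KO (0.407% without the NR GR-KO male library, which held 7 of 10) and 0.375% in GR-Con (0.21% without the DR GR-Con female library). UMIs assigned to ΔCre were in GR-KO as well, in 0.753% of VIP nuclei (0.407% without the NR GR-KO male library) and 2.93% of astrocytes, against 0.375% (0.21% without the DR GR-Con female library) and 2.03% in GR-Con.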

How the results depend on the processing

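No paired analysis was possible because library names carry no replicate number to pair libraries by. They do carry sex, with 1 male and 1 female library per group, and the fit with sex as a term is given instead. In the order genotype under NR, genotype under DR, rearing in GR-Con, rearing in GR-KO, rearing and then genotype over all libraries, interaction, and the rearing and genotype differences between types, the quasi-likelihood test called 0, 3, 9, 1, 2, 0, 0, 0 and 1 genes. DESeq2 gave 1, 5, 16, 3 and 52 for the first 5 and 3 for the interaction. With sex as a term the first 7 were 30, 45, 108, 104, 276, 13 and 16. With 193 nuclei per library they were 8 (GR-KO in NR), 35 (DR in GR-Con) and 93 (DR over both genotypes). Without a filter they were 30 (DR in GR-KO), 91 (DR over both genotypes), 79 and 43 (differences between types). All 8 libraries in 1 fit gave 8 (GR-KO in DR) and 17 (DR in GR-Con), and Lamp5 as the only other type gave 41 for the rearing difference between types. Leaving out 1 library gave counts in the same order of 0 to 259, 15 to 90, 21 to 126, 4 to 709, 42 to 313, 1 to 32, 2 to 109, 1 to 102 and 2 to 26. In fits of 4 libraries this leaves 1 library in a group, which is assumed to vary like the others.

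The highest counts came without the NR GR-KO male library (NR, GR-KO, both genotypes, interaction and both differences between types), the DR GR-Con female (GR-KO in DR, DR in GR-Con) and the NR GR-KO female (GR-KO over both rearings). The lowest came without the NR GR-Con male (NR, GR-Con and rearing between types), the DR GR-KO male (DR, GR-KO, both genotypes and interaction), the DR GR-KO female (GR-KO over both rearings) and the NR GR-Con female (genotype between types). Other libraries also moved counts by over 1.5 times in several comparisons, of which examples follow. DR over both genotypes gave 44 without the NR GR-Con male and 66 without the DR GR-KO female. GR-KO over both rearings gave 18 without the NR GR-KO male. Share differences ranged from -0.0244 to 0.236 percentage points for DR minus NR and from -0.279 to -0.0182 for GR-KO minus GR-Con, the first reversing without the DR GR-Con female library (-0.0244). As shares of inhibitory nuclei they reversed to -0.0634 and 0.188. For B130024G19Rik the genotype difference reversed to -0.0267 with Lamp5 as the only other type. The causes were not tested. Of 113 named calls, RLE factors kept 113, no filter 99 and the quasi-likelihood test 15, and sex as a term kept 98 of 98. With 2 libraries a group, values of genes at a few CPM rest on few UMIs, and small differences in them may not have been detectable at this depth.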
